A study of Mus musculus with 6 samples.

Results

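Oxidative phosphorylation is carried out by 5 protein complexes whose subunits come from both the nuclear and the mitochondrial genome. The genes described here are the protein-coding mouse genes whose symbols start with Nduf, Sdh, Uqcr, Cox4 to Cox8, Atp5, mt-Nd, mt-Cytb, mt-Co or mt-Atp and that had at least 20 read pairs in at least 3 of the 6 libraries. Of 111 genes with these prefixes, 104 met that minimum, among 54838 genes in the files. There were 91 nuclear genes (44 of complex I, 8 of complex II, 8 of complex III, 14 of complex IV and 17 of complex V) and 13 mitochondrial genes (7, 0, 1, 3 and 2, in the same order). The 7 genes left out were the second Atp5o entry, Cox7b2 and Cox8c, at 0 counts in all 6 libraries, and Cox4i2, Cox6a2, Cox8b and Ndufa4l2, at no more than 5 counts in any library.

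The cells were intestinal cells with high GFP, sorted from mice of the strain B6.129P2-Lgr5tm1(cre/ERT2)Cle/J, in which GFP and a tamoxifen-inducible Cre are expressed from the Lgr5 locus, so both groups carried the same modified Lgr5 allele. Each sort pooled 4 mice, and the sorted cells were embedded in Matrigel in crypt medium that held the Notch ligand peptide JAG-1 (1 µM) and the GSK3 inhibitor CHIR99021 (3 µM). After 4 h, cells were given either INT-777 at 30 µM, a semisynthetic bile acid that activates the receptor TGR5, or the solvent DMSO. The time on treatment was 12 h in the sample labels and 16 h in the design text, and no source used here gives the ages of the mice. The experiment was done on 3 days, with 1 DMSO and 1 INT-777 library a day, so the replicate number is the day.

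Complex I (NADH dehydrogenase), complex III (cytochrome bc1) and complex IV (cytochrome c oxidase) pass electrons from NADH to oxygen and pump protons out of the mitochondrial matrix, and complex II (succinate dehydrogenase) feeds electrons from the citric acid cycle without pumping. Complex V, the ATP synthase, lets the protons back and makes ATP. The mitochondrial genome encodes the hydrophobic core of complexes I, III, IV and V, and the nuclear genome encodes the rest, all of complex II and the assembly factors. In the intestine, Lgr5-expressing stem cells are known for active mitochondria, which they use together with lactate from neighbouring Paneth cells.

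The 6 libraries held 45682340 to 47905087 read pairs assigned to genes. All 7 Lgr5 stem cell markers examined were detected, with a summed level of 1982 to 2384 CPM (counts per 1000000 assigned read pairs, scaled between libraries) in DMSO and 1568 to 2003 CPM with INT-777. The libraries of day 3 stood apart from those of days 1 and 2. The biological coefficient of variation, which is the spread between libraries beyond counting, was 2.0% between the DMSO libraries of days 1 and 2 and 2.7% between those with INT-777, against 16.2% to 19.4% for the pairs that included day 3. The labels describe days 1 and 2 as separate sorts, and whether libraries this alike are independent was not tested, which bears on every p-value and most on the fits without day 3. Goblet cell markers summed to 5453, 5361 and 27361 CPM in DMSO on days 1, 2 and 3 and to 2889, 2778 and 11999 CPM with INT-777, and enteroendocrine markers to 586, 598 and 2548 CPM and to 553, 562 and 1978 CPM. Goblet markers were therefore lower with INT-777 on each day and far higher on day 3 in both groups. In an edgeR model of treatment and day, 6 of 7 stem cell, 6 of 7 goblet, 2 of 5 Paneth, 3 of 7 enterocyte, 2 of 6 enteroendocrine and 0 of 4 tuft cell markers were lower with INT-777 at an adjusted p under 0.05 (10.3% of all genes), and 1 stem cell, 1 enterocyte and 1 tuft cell marker were higher (11.1% of all genes). Paneth cell markers summed to 1678 to 3174 CPM, enterocyte markers to 373 to 485 CPM and tuft cell markers to 24.6 to 37.9 CPM. Markers of immune cells and of stroma and endothelium summed to at most 4.29 and 4.09 CPM, and those of red cells and muscle to at most 0.582 CPM. The part of these other cells in the results below was not tested, and in bulk RNA fewer cells of a type and less RNA per cell cannot be told apart.

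The mitochondrial subunits dominated this gene set per length. TPM, a level corrected for exon length and scaled to the same total in each library, are given as means over the 6 libraries in this paragraph. The most abundant member was mt-Co1, the catalytic subunit of complex IV, at 42384 TPM, followed by mt-Nd1 of complex I at 29720 TPM and mt-Cytb, the cytochrome b of complex III, at 22099 TPM. The highest nuclear members were the F1 subunits of the ATP synthase Atp5a1 (alpha, 1321 TPM) and Atp5b (the catalytic beta subunit, 1270 TPM), and the complex IV subunits Cox6a1 (1249 TPM), Cox8a (1150 TPM) and Cox6b1 (1047 TPM). These neighbours differed little: in DMSO, Atp5a1 was at 1293 ± 36.1 TPM, Atp5b at 1255 ± 63.1 TPM and Cox6a1 at 1258 ± 19.0 TPM (SD, n = 3). The median nuclear member was at 144 TPM, with medians of 92.1 TPM in complex I, 79.9 TPM in complex II, 331 TPM in complex III, 312 TPM in complex IV and 145 TPM in complex V. Complex II was led by Sdhd, a membrane anchor. At the low end were the complex I subunit Ndufb2 (2.88 TPM), the muscle isoform Cox7a1 (3.78 TPM) and the complex II assembly factor Sdhaf3 (4.85 TPM), each over 10 times below the nuclear median.

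**Figure D1:**
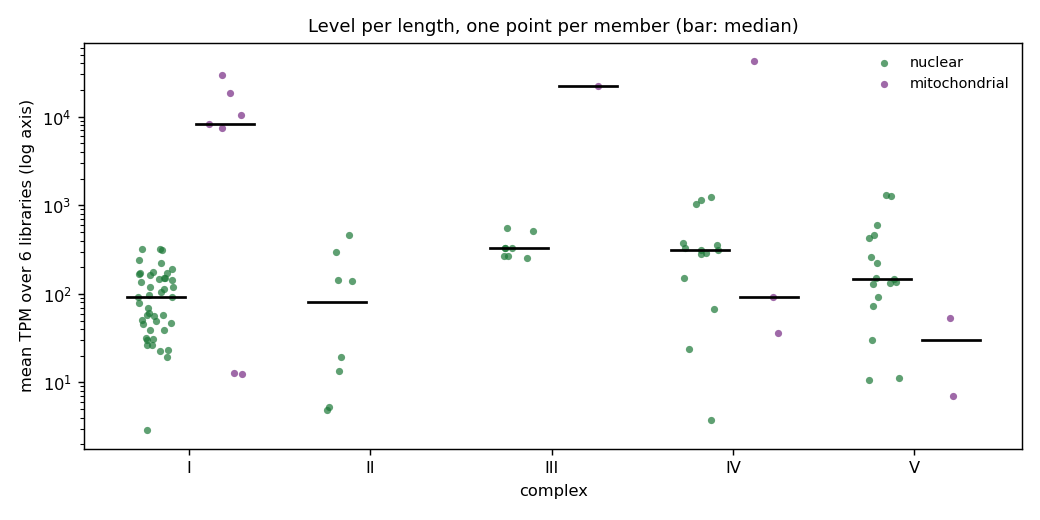
Mean level per length over the 6 libraries (TPM, log axis) of each member, by complex, with nuclear genes in green, mitochondrial genes in purple and a bar at each median. The 13 mitochondrial genes fall into a high set, with mt-Co1 at 42384 TPM on top, and a set of 6 that lies among or below the nuclear genes.

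The read pairs on mitochondrial subunits were a smaller share of the assigned read pairs with INT-777 on each of the 3 days. In DMSO the 13 genes took 5.51%, 5.82% and 5.22% of assigned read pairs on days 1, 2 and 3, and with INT-777 they took 5.05%, 5.20% and 5.04%. The groups did not overlap, and the mean fell from 5.52% ± 0.301 to 5.10% ± 0.0883 (SD, n = 3 each). The 91 nuclear genes took 1.13%, 1.10% and 1.09% in DMSO and 1.10%, 1.14% and 1.17% with INT-777, so they were lower with INT-777 on day 1 and higher on days 2 and 3. The ratio of mitochondrial to nuclear read pairs was 4.86, 5.30 and 4.78 in DMSO and 4.59, 4.54 and 4.31 with INT-777, lower on every day. For the mitochondrial share and for the ratio, the 2-sided exact permutation test gave p = 0.1, the smallest that 3 libraries against 3 allow, and 0.15 after Benjamini-Hochberg adjustment over the 3 quantities. For the nuclear share the exact p was 0.2, also 0.2 after adjustment. The permutation test treated the libraries as unpaired and did not use the pairing by day. The ratio is formed from the same read pairs as the shares, so the 3 quantities are not independent. The drop in the mitochondrial share was 0.457 percentage points on day 1, 0.622 on day 2 and 0.178 on day 3. Read pairs that match several places are not in these shares. They were 6.203%, 6.309% and 5.996% of all read pairs in DMSO and 5.956%, 6.102% and 6.201% with INT-777. They were thus lower with INT-777 on days 1 and 2 and higher on day 3. How many of them came from mitochondrial genes was not tested, so the shares and the ratio describe assigned pairs only. RNA quality also varied between the libraries. The RNA integrity numbers in the labels were 9.3, 9.6 and 8.7 in DMSO on days 1, 2 and 3. With INT-777 they were 9.2, 9.2 and 9. Whether RNA quality bears on the shares or the ratio was not tested.

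**Figure D2:**
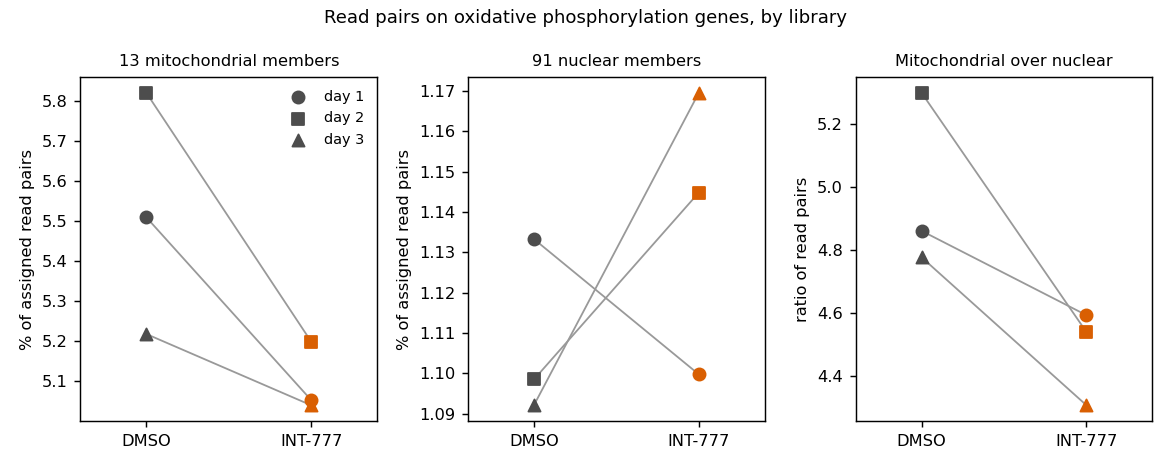
Share of assigned read pairs (percent) on the 13 mitochondrial and the 91 nuclear members, and the ratio of the mitochondrial to the nuclear read pairs, with a point per library and a line joining the DMSO and INT-777 libraries of a day; the vertical axes do not start at 0. The mitochondrial share and the ratio were lower with INT-777 on all 3 days, and the nuclear share was lower on day 1 only.

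Gene by gene, 7 of the 13 mitochondrial members carried nearly all of these reads. They were mt-Nd1, mt-Nd2, mt-Nd4, mt-Nd5 and mt-Nd6 of complex I, mt-Cytb and mt-Co1, at means of 1174 to 20054 CPM. The other 6, mt-Co2, mt-Atp8, mt-Atp6, mt-Co3, mt-Nd3 and mt-Nd4l, lie next to one another on the mitochondrial map and had means of 0.433 to 19.3 CPM. Together these 6 summed to 48.6, 54.6 and 32.6 CPM in DMSO and to 26.3, 30.1 and 60.3 CPM with INT-777. They were thus lower with INT-777 on days 1 and 2 and higher on day 3.

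Of these 6 genes, 5 are matched over 99.0% to 99.9% of their transcript by an annotated nuclear pseudogene on chromosome 1 (GRCm38, GENCODE M21 annotation). In the pseudogene cluster, chr1:24611535-24616197, Gm28437 matched mt-Co3, Gm10925 matched mt-Atp6, Gm28661 matched mt-Co2 and Gm10222 matched mt-Nd4l, all at 100% identity. Gm28438 matched mt-Nd3 at 99.7% identity. The first 120 bases of mt-Nd3 (chrM:9459-9578, plus strand) and of Gm28438 are shown because they hold the single difference between them, and 120 bases of mt-Co3 (chrM:8938-9057, plus strand) are shown as a stretch that is the same in both genomes. All come from the annotation's transcript sequences, and the capitals mark the base that differs, T3C, counted from the first base of each gene.
mt-Nd3: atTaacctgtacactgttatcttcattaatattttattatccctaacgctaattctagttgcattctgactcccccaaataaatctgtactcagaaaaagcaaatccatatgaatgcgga
Gm28438: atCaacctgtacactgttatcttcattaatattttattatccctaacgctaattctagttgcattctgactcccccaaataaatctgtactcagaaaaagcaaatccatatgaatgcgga
mt-Co3: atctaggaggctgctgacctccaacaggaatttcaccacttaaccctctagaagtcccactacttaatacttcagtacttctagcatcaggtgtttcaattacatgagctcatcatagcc
Gm28437: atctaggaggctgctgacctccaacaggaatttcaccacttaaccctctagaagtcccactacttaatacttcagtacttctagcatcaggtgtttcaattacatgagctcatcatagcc

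Read pairs that match several places are outside the gene counts, and they were 5.96% to 6.31% of all read pairs. The copies had counts of the same order as the genes. Gm28661 was at 14.2, 15.6 and 10.1 CPM in DMSO and at 6.55, 10.4 and 19.1 CPM with INT-777. All 7 annotated copies in the cluster, which also cover 63.6% of mt-Nd4 and 31.3% of mt-Co1, were lower with INT-777 on days 1 and 2 and higher on day 3, the order seen in 5 of the 6 low genes. Whether the pairs counted for these genes came from the mitochondrial genome or from the nuclear copies was not tested, so their levels and differences are uncertain. The remaining low gene, mt-Atp8, has no annotated copy of at least 98% identity over 100 bases, shares 21.1% of its length with mt-Atp6, and lies between mt-Co2 and mt-Atp6.

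**Figure D3:**
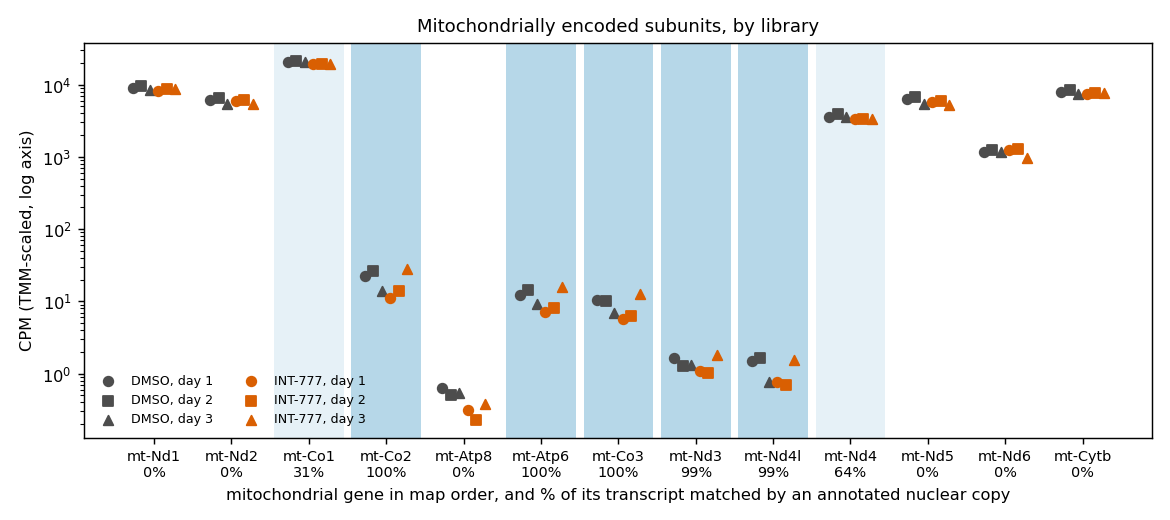
Level of each of the 13 mitochondrial subunits (CPM, log axis) in the 6 libraries, in map order, with the percent of the transcript matched by an annotated nuclear copy under the name and as shading. The 8 genes with no copy or a partial copy sit at 974 CPM and above, except mt-Atp8, and the 5 with a copy over almost their whole length sit below 30 CPM.

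With the days as plain replicates (edgeR's quasi-likelihood test, Benjamini-Hochberg adjustment over the 15998 genes tested), none of the 104 members passed an adjusted p of 0.05. Over all genes 1.45% passed, 0.688% higher and 0.763% lower with INT-777. At an unadjusted p under 0.05, 11 members passed (10.6%), against 16.4% of all genes. DESeq2 called 1 member, Cox6b2, lower, where it called 4.99% of all genes, and limma-voom called 0 where it called 1.34%. The direction of the log2 fold changes differed by genome. Of the 91 nuclear members 74 had a positive value, with a median of 0.04, and of the 13 mitochondrial members 0 did, with a median of -0.12 and a range of -0.83 to -0.02. Over all genes 50.7% were positive, and the median was 0.003.

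When the day was a term in the same edgeR model, which compares INT-777 with DMSO within each day, 12 members passed (11.5% of 104), against 21.4% of all genes. Of all genes, 11.1% passed as higher and 10.3% as lower with INT-777. Among nuclear members 10 were higher (11% of 91) and 2 were lower (2.20%), and among mitochondrial members 0 passed at the adjusted threshold. The share of nuclear members called higher was thus close to that of all genes, and the share called lower was below it. The 12 calls depended on which days were used: without day 2 the model with day called 1 (12% of all genes), without day 1 it called 19, all higher (20% of all genes), and without day 3 it called 10 nuclear and 9 mitochondrial members (24.1% of all genes).

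The mitochondrial subunits are described first. Of the 7 well-counted genes, mt-Co1 was at 20553, 21419 and 20633 CPM in DMSO and at 19057, 19200 and 19464 CPM with INT-777 on days 1, 2 and 3. All 3 INT-777 libraries were below all 3 DMSO libraries, and the log2 difference was -0.12 ± 0.05 (SE), with an adjusted p of 0.0915 in the edgeR model with day. The complex I core subunit mt-Nd4 did not overlap between groups either, at 3563, 3863 and 3517 CPM against 3321, 3371 and 3377 CPM. Its log2 difference was -0.12 ± 0.05 and its adjusted p 0.0769 in the same edgeR model. For mt-Nd5 the levels were 6386, 6791 and 5339 CPM against 5694, 5925 and 5243 CPM, lower on each day but overlapping across days, with the smallest adjusted p of the 13, 0.0677 (edgeR with day). With mt-Nd2 and mt-Atp8, these 3 were the 5 mitochondrial members lower with INT-777 on all 3 days (25.3% of all genes were), and mt-Co1, mt-Nd4 and mt-Atp8 were the 3 whose groups did not overlap (11% of all genes lay wholly lower). For mt-Nd1 and mt-Cytb, the values with INT-777 were below DMSO on days 1 and 2 and within 0.02 of it on the log2 scale on day 3. Nuclear copies match 31.3% of mt-Co1 and 63.6% of mt-Nd4. The well-counted genes with no such copy, mt-Nd1, mt-Nd2, mt-Nd5, mt-Nd6 and mt-Cytb, all overlapped between groups. Whether the copies bear on the separation of mt-Co1 and mt-Nd4 was not tested.

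The exception in direction was mt-Nd6, the complex I subunit encoded on the opposite strand to all other mitochondrial subunits. It was at 1148, 1252 and 1151 CPM in DMSO and at 1239, 1279 and 974 CPM with INT-777, higher on days 1 and 2 and lower on day 3. Its log2 fold change of -0.02 was the smallest of the 13 genes, and the libraries did not keep strand, so reads from the other strand of this region would be counted with it. At the other end, mt-Atp8 was at 0.629, 0.499 and 0.539 CPM against 0.318, 0.231 and 0.385 CPM, a log2 fold change of -0.83 ± 0.29 with an adjusted p of 0.217 (edgeR), on few reads. Among the genes with near-identical copies, mt-Co2 was at 22.1, 26.7 and 14.0 CPM in DMSO and at 11.3, 13.9 and 27.9 CPM with INT-777, with within-day log2 differences of -0.97, -0.94 and 0.99.

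Without day 3 and with no day term in the model, the edgeR fit on the nearly alike libraries of days 1 and 2 gave another count. In it 10 of the 13 mitochondrial members were lower (76.9%), where 12.9% of all genes were, and mt-Nd2, mt-Nd3 and mt-Nd6 did not pass. The log2 differences were -0.19 for mt-Nd5, -0.16 for mt-Nd4, -0.14 for mt-Co1 and mt-Nd1 and -0.12 for mt-Cytb, and -0.81 to -1.10 for the 5 low genes that passed. Without day 1 and with day in the model, 0 of the 13 passed. DESeq2 with day in the model, on all 3 days, called 3 of the 13 lower (7.26% of all genes) and 0 higher (6.95% of all genes). The count of mitochondrial genes called lower thus ran from 0 to 10 with the days used, the day term and the tool.

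**Figure D4:**
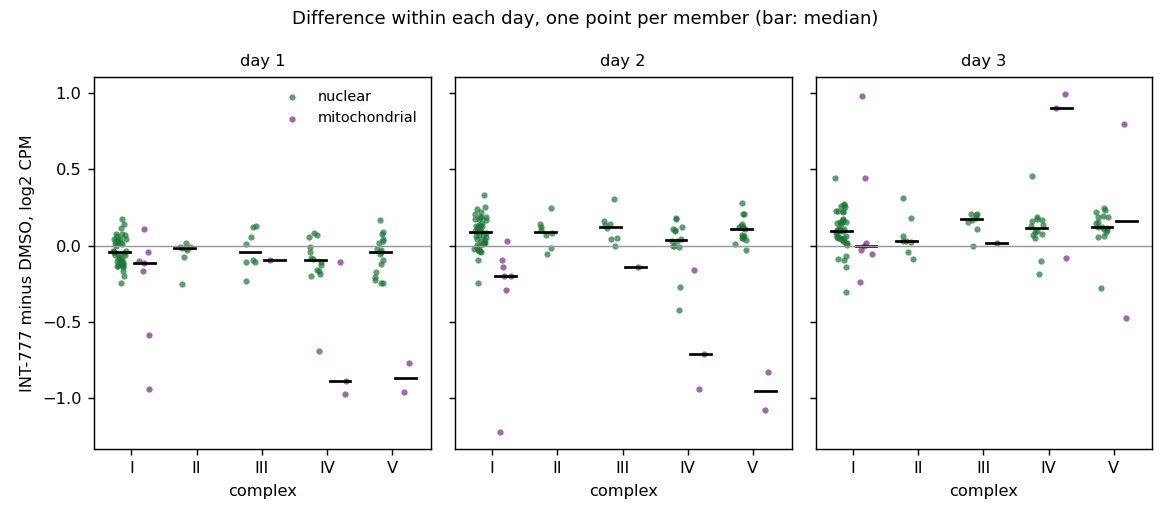
Difference between the INT-777 and DMSO library of each day (log2 CPM) for each member, by complex, with nuclear genes in green, mitochondrial genes in purple and a bar at each median. The nuclear medians lie below 0 on day 1 and above 0 on days 2 and 3, and the low mitochondrial genes change sign on day 3.

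Nuclear members moved by small amounts and not alike on the 3 days. On day 1, 31 of 91 were higher with INT-777, on day 2 73 were, and on day 3 80 were, with median log2 differences of -0.04, 0.09 and 0.11. Over all genes the shares were 51.4%, 51.5% and 49.5%. The direction was the same on all 3 days for 34 nuclear members, 29 higher and 5 lower, where 26.8% of all genes were higher and 25.3% lower on all 3 days. In 18 nuclear members all INT-777 libraries lay above all DMSO libraries, and in 1, Cox6b2, below. The background for such separation was 13.6% of all genes higher and 11% lower. Across the 91 genes, Spearman's rho between the difference and exon length was 0.30 on day 1, 0.08 on day 2 and -0.05 on day 3. Over all genes it was 0.06, -0.09 and -0.14, and both are descriptions across genes that share 6 libraries.

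Complex I, the largest complex, had 5 nuclear members higher and 1 lower of 44 in the edgeR model with day, with a median log2 fold change of 0.04. These were 11.4% higher, close to the 11.1% of all genes, and 2.27% lower, below the 10.3% of all genes. The core subunit Ndufs7, which binds an iron-sulfur cluster near the quinone site (ENSMUSG00000020153, chr10:80249121-80256794, plus strand), was at 60.5, 58.1 and 59.6 CPM in DMSO and at 63.8, 68.5 and 69.3 CPM with INT-777. All INT-777 libraries were higher, by 0.18 ± 0.05 on the log2 scale (1.13-fold, adjusted p 0.0164 in edgeR with day and 0.173 without). The accessory subunit Ndufa8 (chr2:36036326-36049406, minus strand) was at 82.4, 77.6 and 76.1 CPM against 84.3, 88.2 and 89.2 CPM, also without overlap, with a log2 difference of 0.15 ± 0.05 and an adjusted p of 0.0358 (edgeR with day). The core subunit Ndufs3 and the assembly factors Ndufaf4 and Ndufaf6 were the other 3 that rose, with log2 differences of 0.14, 0.17 and 0.25. A processed pseudogene matches 75.7% of the Ndufs3 transcript, and it had at most 31 counts in a library. All 7 nuclear core subunits, which carry the redox centres, had positive values, and 2 of the 7 passed.

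The member of complex I that fell was Ndufv3, an accessory subunit of the NADH-binding arm (chr17:31520115-31531331, plus strand). It was at 48.3, 51.3 and 55.2 CPM in DMSO and at 42.1, 43.4 and 51.6 CPM with INT-777. The INT-777 library was the lower one on each day, but day 3 with INT-777 exceeded day 1 of DMSO, so the groups overlapped. The log2 difference was -0.18 ± 0.05, with an adjusted p of 0.0191 (edgeR with day). Of the 29 accessory subunits, 22 had positive values, and besides Ndufa8 and Ndufv3 none passed.

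Complex II had 0 of 8 members past the threshold in either edgeR model. Its catalytic flavoprotein Sdha was at 393, 389 and 344 CPM in DMSO and at 391, 385 and 349 CPM with INT-777, a log2 difference of 0.00 ± 0.04 with day in the model. Sdhd, the most abundant per length, was at 173, 166 and 161 CPM against 171, 178 and 183 CPM, close on day 1 and higher on days 2 and 3 (log2 difference 0.09 ± 0.04, adjusted p 0.170, edgeR with day). The least abundant per length, Sdhaf3, was at 6.77, 7.92 and 7.76 CPM against 6.74, 8.31 and 7.93 CPM.

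Complex III had the largest part of its members called, 4 of 8 nuclear genes, all higher, where 11.1% of all genes were called higher, with a median log2 difference of 0.09. DESeq2 with day in the model called 1 of the 8, higher, and the median ran from 0.03 to 0.13 when a library or day was left out. Uqcrc1, a core protein of the matrix side (ENSMUSG00000025651, chr9:108936633-108949623, plus strand), was at 331, 330 and 307 CPM in DMSO and at 360, 369 and 348 CPM with INT-777. Every INT-777 library was above every DMSO library, the log2 difference was 0.15 ± 0.04 (1.11-fold) and the adjusted p was 0.0106 in edgeR with day and 0.237 without. Uqcrfs1, the Rieske iron-sulfur protein that hands electrons to cytochrome c1 (ENSMUSG00000038462, chr13:30540308-30545362, minus strand), was at 132, 131 and 133 CPM against 144, 144 and 144 CPM. The groups lay apart, with an SD of 1.01 CPM in DMSO and 0.442 CPM with INT-777. Its log2 difference was 0.13 ± 0.04 (1.09-fold, adjusted p 0.0322 in edgeR with day). Uqcrc2, the partner of Uqcrc1, and the small subunit Uqcr10 rose by 0.13 and 0.16 on the log2 scale. The other 4, Uqcr11, Uqcrb, Uqcrh and Uqcrq, had values between -0.02 and 0.05, and mt-Cytb, the mitochondrial subunit of the same complex, had a value of -0.07 ± 0.05. Without day 3 and with no day term in edgeR, Uqcrh was called lower and Uqcr10 was not called.

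Complex IV had 1 of 14 nuclear members called in the edgeR model with day (7.14%, against 21.4% of all genes). The member called was Cox6b2, an isoform of subunit 6B known from testis (ENSMUSG00000051811, chr7:4751792-4753094, minus strand). It was at 9.90, 9.20 and 8.45 CPM in DMSO and at 6.12, 6.86 and 7.42 CPM with INT-777, without overlap. The log2 difference was -0.43 ± 0.10 (1.35-fold lower, adjusted p 0.00689 in edgeR with day, 0.123 without), and it narrowed from -0.69 on day 1 to -0.42 on day 2 and -0.19 on day 3. The widely expressed isoform Cox6b1 was at 231, 226 and 226 CPM against 207, 226 and 247 CPM, lower on day 1, about equal on day 2 and higher on day 3. The day-1 decline was common in this complex: 3 of 14 nuclear members were higher on day 1, 9 on day 2 and 12 on day 3. It was not particular to complex IV. The share higher on day 1 was 21.4% here, 12.5% in complex II, 35.3% in V, 38.6% in I and 50% in III.

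The other tissue isoforms of complex IV were at background or at low level. Cox4i2, Cox6a2 and Cox8b had at most 5 counts in a library, while their partners Cox4i1 (mean 176 CPM), Cox6a1 (269 CPM) and Cox8a (218 CPM) were among the higher members. Cox7a1, the muscle and heart isoform, was at 0.521, 0.586 and 0.668 CPM in DMSO and at 0.551, 0.483 and 0.920 CPM with INT-777, against means of 84.1 CPM for Cox7a2 and 129 CPM for the supercomplex factor Cox7a2l. The hypoxia-linked Ndufa4l2 had at most 1 count, and Ndufa4, now counted as a subunit of complex IV, was at 134, 124 and 145 CPM against 126, 135 and 164 CPM. None of the widely expressed isoforms passed in either edgeR model, with log2 values between -0.05 and 0.11.

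Complex V had 1 of 17 nuclear members called in the edgeR model with day (5.88%, against 21.4% of all genes). Atp5g2, 1 of 3 genes for the c subunit of the membrane ring (ENSMUSG00000062683, chr15:102662864-102672352, minus strand), was at 73.2, 70.4 and 67.7 CPM in DMSO and at 77.3, 81.3 and 77.4 CPM with INT-777. The groups did not overlap, and the log2 difference was 0.16 ± 0.05 (1.12-fold, adjusted p 0.0207 in edgeR with day). The other c-subunit genes were also separated: Atp5g1 was at 192, 186 and 175 CPM against 194, 205 and 206 CPM, and Atp5g3 at 273, 266 and 279 CPM against 281, 289 and 317 CPM. Their adjusted p-values of 0.0506 and 0.0610 (edgeR with day) missed the threshold. The mature c subunit is the same protein from all 3 genes. Of the 17 nuclear members 15 had positive values. Atp5a1, the most abundant per length, was at 1250, 1252 and 1208 CPM against 1332, 1308 and 1258 CPM, with a log2 difference of 0.07 ± 0.04.

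**Figure D5:**
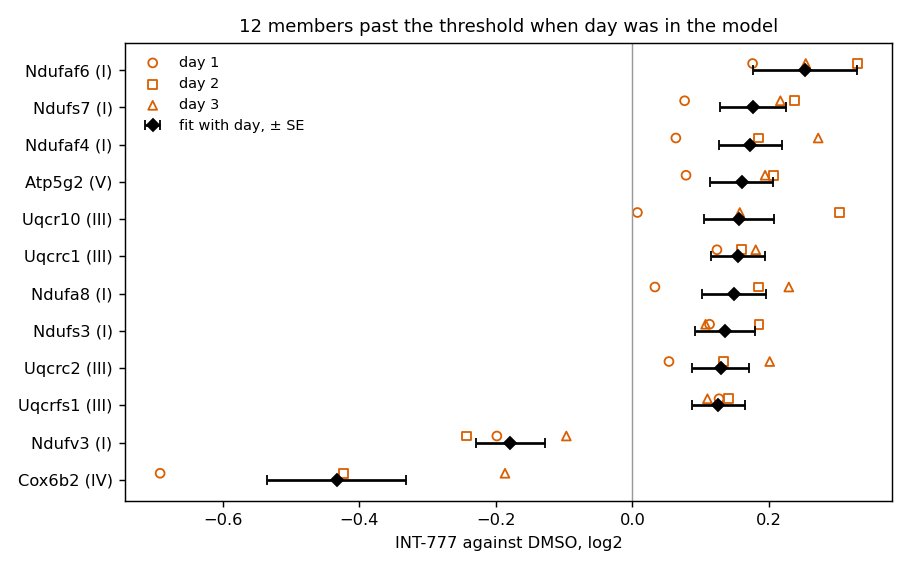
The 12 members past an adjusted p of 0.05 in the edgeR model with day (complex in brackets), with the log2 difference of each day as open symbols and the fitted value with its standard error as black diamonds. The 10 higher members lie between 0.13 and 0.25, and in most of them day 1 has the smallest difference.

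The promoters of 3 called members are shown because they hold motifs of factors known to act on respiratory genes, the first 2 for NRF1 and the last for the cAMP response element. NRF1, a nuclear respiratory factor, binds near the start of many such genes, and the cAMP response element binds CREB, a target of the cAMP that TGR5 raises. The windows run from 250 bases before to 50 bases after the start (RefSeq, GRCm38.p6): Uqcrc1 at chr9:108936398-108936697 on the plus strand, Atp5g2 at chr15:102670998-102671297 on the minus strand, and Uqcrfs1 at chr13:30545267-30545566 on the minus strand. Capitals mark the matches, to the NRF1 motif on either strand in Uqcrc1 and Atp5g2 and to TGACGTCA in Uqcrfs1.
Uqcrc1: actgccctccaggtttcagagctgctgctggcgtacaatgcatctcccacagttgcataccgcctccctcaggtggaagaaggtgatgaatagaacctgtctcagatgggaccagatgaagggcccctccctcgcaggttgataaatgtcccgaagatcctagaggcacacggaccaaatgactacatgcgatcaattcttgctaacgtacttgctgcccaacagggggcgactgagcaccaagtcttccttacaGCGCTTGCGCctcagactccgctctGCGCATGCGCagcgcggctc
Atp5g2: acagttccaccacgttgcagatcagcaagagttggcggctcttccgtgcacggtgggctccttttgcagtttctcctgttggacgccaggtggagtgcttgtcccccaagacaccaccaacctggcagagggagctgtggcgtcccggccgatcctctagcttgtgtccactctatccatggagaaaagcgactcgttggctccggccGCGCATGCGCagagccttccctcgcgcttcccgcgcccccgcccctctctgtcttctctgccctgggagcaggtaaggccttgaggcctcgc
Uqcrfs1: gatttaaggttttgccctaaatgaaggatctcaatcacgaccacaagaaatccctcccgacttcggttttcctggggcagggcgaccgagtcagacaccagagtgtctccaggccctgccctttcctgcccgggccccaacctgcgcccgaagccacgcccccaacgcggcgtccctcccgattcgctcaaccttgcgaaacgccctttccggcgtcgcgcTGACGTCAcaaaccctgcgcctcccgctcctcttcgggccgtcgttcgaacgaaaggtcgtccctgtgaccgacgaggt

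Across the set, 76 of the 91 nuclear members had a promoter entry. All motifs were searched on both strands. The NRF1 motif was in 21 of them (27.6%), against 7.17% of the promoters of all 17492 genes with an entry. The YY1 motif (AAGATGGCG) was in 8 members (10.5%, against 2.14%) and the ERR motif (TCAAGGTCA) in 2 (2.63%, against 0.377%). The cAMP response element (TGACGTCA) was in 4 (5.26%, against 2.54%) and the GABP motif (CCGGAAGT) in 5 (6.58%, against 5.69%). Besides Uqcrfs1, the members with the cAMP response element were Ndufa10, Ndufa11 and Ndufb2, and none of these was called. Their log2 differences were 0.06, 0.08 and -0.15 in edgeR with day. Of the 12 called members 10 had an entry, and 4 of these held the NRF1 motif. Matches of different motifs overlapped in 0 of the 81 member windows, and a match is not evidence that the factor was bound in these cells.

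Between days, 17 of the 104 members differed on day 3 from days 1 and 2 in a model with treatment (edgeR, adjusted p under 0.05), where 28.3% of all genes did. This contrast was chosen with day 3 already known to stand apart. Day 3 is a single day with 1 DMSO and 1 INT-777 library, so these p-values do not measure the spread between days. The calls describe these libraries only. Those higher on day 3 were 11 nuclear members, Ndufa6, Ndufa7, Ndufb11, Ndufc1, Ndufv3, Uqcr10, Uqcr11, Uqcrq, Cox7a2l, Ndufa4 and Atp5e, from Atp5e (0.27 on the log2 scale) and Ndufa7 (0.26) to Ndufb11 (0.13). Those lower were mt-Nd5 (-0.22), mt-Nd6 (-0.21), mt-Nd2 (-0.19), the succinate dehydrogenase flavoprotein Sdha (-0.17), Ndufaf4 (-0.15) and Ndufs1 (-0.12). These day differences spanned about the same sizes as the treatment differences of the called members, and goblet and enteroendocrine markers moved with it as given above.

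Genes that work beside the 5 complexes were counted in 9 companion lists in the edgeR model with day, where 11.1% of all genes were higher and 10.3% lower. Mitochondrial import had 15 of 22 tested genes higher and 0 lower, with a median log2 difference of 0.20, led by the matrix chaperonin Hspd1 (0.26) and the outer membrane receptor Tomm22 (0.28). The mitochondrial ribosome, which translates the 13 mitochondrial subunits, had 21 of 77 higher and 0 lower with a median of 0.11, and its subunit Mrps34 was at 11.2, 11.1 and 11.3 CPM in DMSO and at 15.2, 14.4 and 14.8 CPM with INT-777 (adjusted p 0.0390, edgeR without day). Glycolysis had 7 of 17 higher and 1 lower (Pfkfb3), with Pgam1 at 0.29 and Pgk1 at 0.26. Thus the import list had a larger share of genes called higher than the nuclear members, assembly factors included, 68.2% against 11%. This difference between lists was not tested.

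Coenzyme Q and cytochrome c had 4 of 11 higher and 0 lower, among them Coq6 (0.24), Coq4 (0.26) and Cyc1, the cytochrome c1 of complex III, whose symbol lies outside the prefixes (0.15). Assembly factors outside the prefixes had 5 of 36 higher and 0 lower, including Fastkd2 and Lrpprc, which stabilise mitochondrial RNA (0.19 and 0.16). Mitochondrial DNA transcription and replication had 5 of 19 higher, among them Mgme1 (0.26), and 1 lower, Dguok (-0.32). The citric acid cycle had 4 of 21 higher and 0 lower, among them Pcx (0.27) and Dlat (0.16), and the energy expenditure list of carriers and channels had 3 of 8 higher and 0 lower, Vdac2, Vdac1 and Slc25a5. Regulators of respiration had 6 of 18 higher, with Pprc1 (0.19), Nrf1 (0.19) and Gabpa (0.19) among them. The 1 regulator lower was Ppargc1a, the PGC-1α coactivator, singled out after its values were seen. It was at 12.4, 13.2 and 14.3 CPM in DMSO and at 10.98, 10.4 and 9.65 CPM with INT-777, with a log2 difference of -0.36 ± 0.09 (adjusted p 0.0075 in edgeR with day, 0.120 without).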

How the data were processed

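RNA was measured in 6 libraries (BGISEQ-500, paired reads), 3 per group. The authors deposited STAR gene tables of whole-number read counts per gene, and per the submitters' processing notes reads went through FastQC, STAR 2.73a and edgeR 3.24.3 with GRCm38 (mm10). No source used here names the annotation release. The unstranded counts were used, since reads fell evenly on both strands (50.1% to 50.6% on the first). Assigned pairs were 74.5% to 75.6% of all pairs, and the non-gene lines (unmapped, multimapping, no feature, ambiguous) stayed out. Of 54838 gene IDs, 54809 matched GENCODE M21, which gave symbols, positions and exon lengths.

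Groups were compared with edgeR 4.0.16 (TMM scaling, filterByExpr, quasi-likelihood test, adjusted p under 0.05), without and with the day as a block, on all 15998 genes that passed the filter, which included all 104 members. CPM are TMM-scaled, and log2 differences within a day use a prior count of 0.5. The replicate number is the day in the labels, so it pairs the libraries: deviations from the group means correlated at 0.301, 0.337 and 0.605 for days 1, 2 and 3, although the INT-777 library of day 1 correlated with the DMSO library of day 2 at 0.303. Alternatives were DESeq2 1.42.0, limma-voom 3.58.1, other scalings and filters, and leaving out libraries. Nuclear copies were searched with BLAST 2.17.0 (at least 98% identity over 100 bases). The fits were tested on simulated data with changes of 1.5-fold and 2-fold. Without day, edgeR recovered 49% of the 1.5-fold and 70% of the 2-fold changes, with 22 false calls. With day as a block it recovered 72% and 81%, with 8 false calls. The contrast of day 3 recovered 67% and 79%, with 9 false calls. Smaller changes, such as those of the called members, were not simulated.

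The members, companion lists and markers were chosen with earlier results of these data known. Values per library are given for called members of each complex (up to 2 higher and 2 lower of smallest p, subunits first), the extremes of the mitochondrial fold changes and of the levels per length, tissue isoforms, c-subunit genes and the extremes of the day difference. Members that overlap other genes on the same or the opposite strand are uncertain, since strand was not kept: 2 had over 50% of their exon bases in such overlaps, Ndufaf2 and Sdhaf1. Near-identical copies covered over 50% of the transcript of 4 nuclear members, Ndufs3, Atp5h, Uqcrb and Atp5l. Each sort pooled 4 mice. In the fits without day, p-values rest on the spread between the 3 days within a group. In those with day, they rest on how the difference between INT-777 and DMSO varied from day to day. In both, days 1 and 2 were nearly alike.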

Additional observations from a re-analysis of the deposited data

How the results depend on the processing

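Across all genes, 232 passed in edgeR without day. The count was 3416 with the replicate block, 798 in DESeq2, 2274 in DESeq2 with the block and 435 without the low-count filter. Leaving out libraries or days gave 0 to 4292, the lowest without day 1 and the highest without day 3. Nuclear members called went from 0 to 12 with the replicate block, to 1 in DESeq2, to 4 in DESeq2 with the block, and to between 0 and 19 when libraries or days were left out. Mitochondrial members called stayed at 0 with the replicate block, were 3 in DESeq2 with the block, and ranged from 0 to 10 in the fits that left out a library or day. Chosen after seeing the data, the replicate block was combined with other scalings: RLE gave 3356 genes and 9 nuclear members, upper-quartile scaling 3326 genes, 7 nuclear and 2 mitochondrial members, library size alone 3282 genes, 7 nuclear members and 1 mitochondrial, and library size without mitochondrial genes 3305 genes and 7 nuclear members. The median log2 change of nuclear members was 0.03 to 0.04 under the other scalings, with 62 to 71 of 91 positive, and 0.0002 to 0.10 with a library or day left out. That of mitochondrial members was -0.14 to -0.13 under the other scalings and -0.19 to -0.05 with a library or day left out. In the fits that left out a library or day, the median log2 change of the nuclear members ran from 0.004 to 0.087 in complex I, -0.030 to 0.087 in II, 0.031 to 0.129 in III, -0.075 to 0.094 in IV and 0.018 to 0.120 in V, so it changed sign in II and IV. In complex IV it was also just below 0 with the replicate block and upper-quartile scaling (-0.005) or library size alone (-0.002). The causes of these moves were not tested. Depth was even across the libraries, and it limits the members with few reads, in both genomes, such as mt-Atp8 and Cox7a1.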
